A study of Mus musculus with 24 samples.

Results

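Mitochondrial ribosomal proteins were taken as the protein-coding genes whose mouse symbol begins with Mrpl (large subunit) or Mrps (small subunit). The count table held 78 of them among 47643 genes, 49 Mrpl and 29 Mrps, and 74 (48 and 26) passed the filter on low counts. They were measured by 3′-end RNA sequencing of plantaris, a fast hindlimb muscle, from wild type C57BL/6 mice. The comparison was of 11 samples from animals in normal air with 13 from animals that had 16 weeks of tobacco smoke; age and sex were not given in the labels. The series title ties it to chronic activity of the aryl hydrocarbon receptor in smoking-related muscle impairment, and the question here is whether transcripts of the mitochondrial ribosome differed after smoke.

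The mitochondrial ribosome sits in the matrix and translates the few mRNAs of the mitochondrial genome, which encode core subunits of the respiratory chain and of ATP synthase. Its ribosomal RNAs are mitochondrial products, whereas every one of its proteins is encoded in the nucleus and imported. Some of these proteins have a counterpart in bacterial ribosomes and others are specific to mitochondria. Skeletal muscle draws on the respiratory chain, several of whose complexes join such mitochondrial products to subunits made in the cytosol. The symbols do not always give the place of the protein: Mrps30 and Mrps18a lie in the large subunit, and Mrps36 encodes a small component of the 2-oxoglutarate dehydrogenase complex.

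Nuclear factors of the ETS family (GABP), NRF1 and YY1 are known regulators of genes for mitochondrial proteins, so short core motifs of these factors were searched in promoter windows from RefSeq (GRCm38.p6, 250 bases before to 50 after a start). Windows were found for 69 of the 78 genes, 75 windows in all. The ETS core CCGGAAG, on either strand, was present in 26 of the 75 windows (34.7%), against 8.86% of all 32851 windows and 17.3% of the 9905 windows of the other tested genes. The YY1 core AAGATGGC was present in 12 of them (16.0%), against 2.75% and 4.61%. The palindromic NRF1 core was present in 3 (4.00%), those of Mrpl9, Mrpl32 and Mrpl39, against 0.971% and 2.05%. The ETS core ends and the YY1 core begins with the letters AAG, so a match of one can overlap the other. A match is a description of the sequence only.

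The windows printed below are those of the member called under smoke (Mrpl14), of the small subunit gene with the smallest p (Mrps23), of a gene with both the ETS and the YY1 core (Mrps12) and of a gene with both the NRF1 and the YY1 core (Mrpl32). They lie at chr17:45686099-45686398 (plus strand), chr11:88204138-88204437 (plus), chr7:28741772-28742071 (minus) and chr13:14612988-14613287 (minus) of GRCm38.p6. Capitals mark a motif on either strand, and the window of Mrpl14 holds none of the 3.
Mrpl14: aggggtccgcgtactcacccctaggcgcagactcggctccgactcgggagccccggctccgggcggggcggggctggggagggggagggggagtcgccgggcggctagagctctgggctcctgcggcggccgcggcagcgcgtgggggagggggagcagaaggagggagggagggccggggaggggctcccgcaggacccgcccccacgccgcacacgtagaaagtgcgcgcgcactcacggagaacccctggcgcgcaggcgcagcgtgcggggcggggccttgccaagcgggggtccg
Mrps23: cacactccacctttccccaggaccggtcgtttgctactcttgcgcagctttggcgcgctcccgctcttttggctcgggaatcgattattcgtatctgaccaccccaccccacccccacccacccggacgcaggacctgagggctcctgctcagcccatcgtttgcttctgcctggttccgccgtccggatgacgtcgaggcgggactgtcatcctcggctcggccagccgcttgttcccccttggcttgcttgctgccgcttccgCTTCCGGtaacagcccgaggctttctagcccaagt
Mrps12: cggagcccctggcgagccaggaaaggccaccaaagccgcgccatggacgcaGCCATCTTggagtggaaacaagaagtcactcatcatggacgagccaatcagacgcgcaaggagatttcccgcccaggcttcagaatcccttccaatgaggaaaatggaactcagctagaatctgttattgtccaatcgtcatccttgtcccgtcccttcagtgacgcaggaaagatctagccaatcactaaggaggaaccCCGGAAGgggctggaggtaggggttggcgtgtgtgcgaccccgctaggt
Mrpl32: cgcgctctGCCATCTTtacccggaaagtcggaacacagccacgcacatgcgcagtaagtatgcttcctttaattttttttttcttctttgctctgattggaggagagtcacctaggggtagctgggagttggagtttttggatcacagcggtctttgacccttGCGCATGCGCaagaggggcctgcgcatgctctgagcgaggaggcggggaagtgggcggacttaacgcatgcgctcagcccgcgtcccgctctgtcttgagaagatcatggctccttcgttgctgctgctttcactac

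Samples held 2515697 to 4528845 counts in total, so that 3 counts, taken as the detection floor, equalled 0.665 to 1.15 CPM (counts scaled to a common library size after TMM normalisation). Errors after ± are SDs over the 11 air or 13 smoke samples unless an SE is named. Markers of muscle fibres were abundant in every sample, at 117800 to 179300 summed CPM in air and 123000 to 152700 in smoke for 6 of 6 genes, of which Mb alone was called (lower under smoke). Blood cell markers, 5 of 5 tested and 3 called lower, had summed levels of 486 to 1444 CPM in air and 369 to 883 in smoke. Schwann cell markers, 5 of 5 tested and 3 called higher, had 118 to 274 CPM in air and 176 to 852 in smoke. No defining marker of the 8 lists of cell types was at 0 in every sample, and none of the lists for endothelium, fibroblasts, macrophages, adipocytes or satellite cells had a called gene.

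The 74 tested genes had a median of 44.1 CPM over all samples, against 13.8 CPM for all 10159 tested genes, and 60 of the 74 lay above the latter. QuantSeq counts arise near the 3′ end of a transcript and are not divided by length, so CPM was compared between genes as it stands; a gene whose 3′ end is not annotated would be counted too low. Levels spanned 2.98 to 310 CPM. The 10 most abundant members made up 39.9% of the summed CPM of all 78, and 9 of the 10 above 100 CPM were Mrpl genes. The median was 47.6 CPM over Mrpl genes and 39.95 CPM over Mrps genes.

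**Figure D1:**
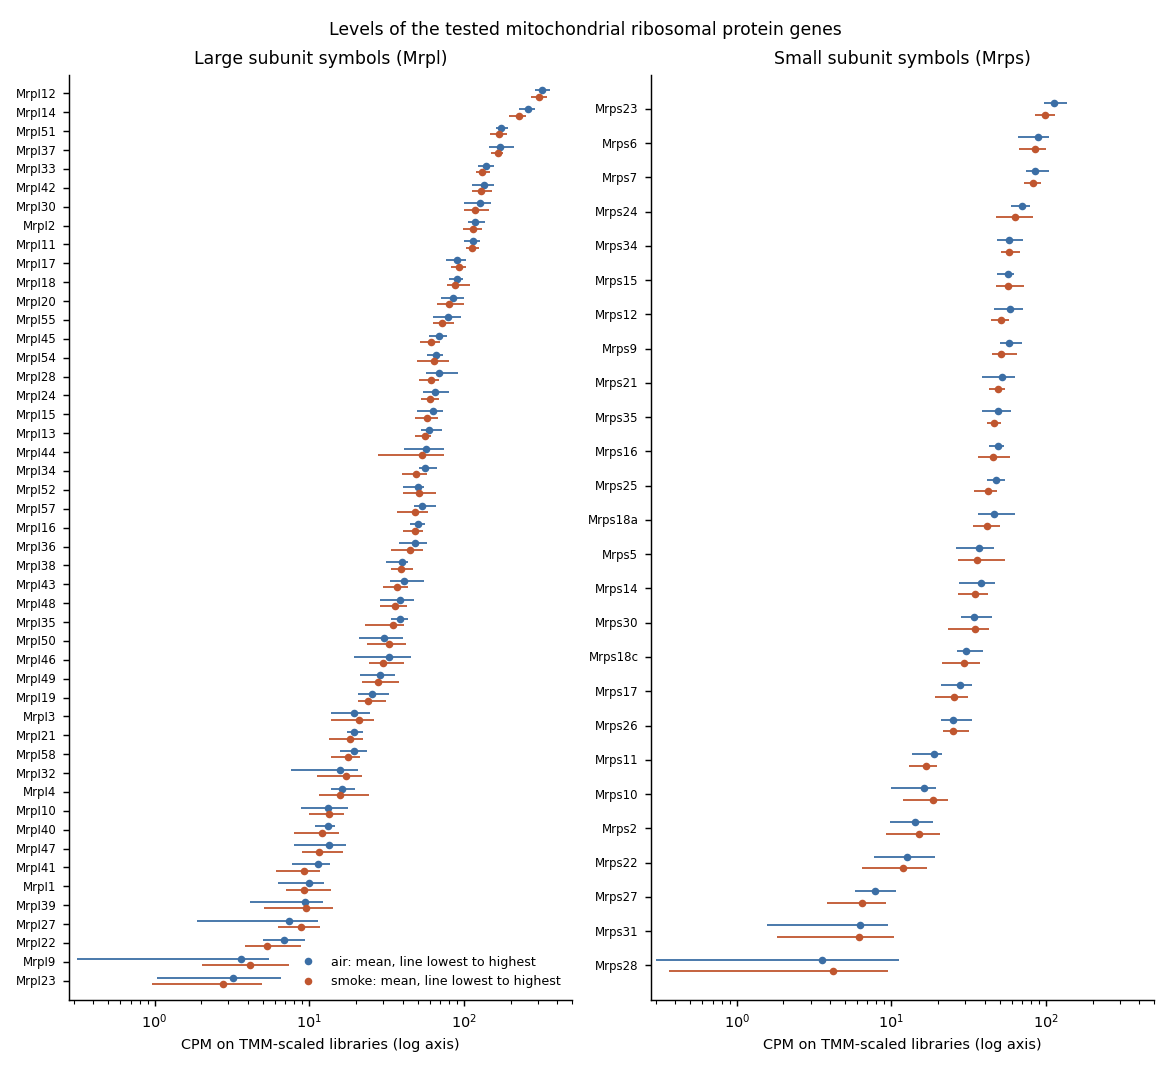
Level of each of the 74 tested mitochondrial ribosomal protein genes on a log axis in CPM, with points for the group means, lines from the lowest to the highest sample (a value of 0 is drawn near the left edge), blue for 11 air and red for 13 smoke samples. Mrpl12 leads the large subunit at 310 CPM and Mrps23 the small subunit at 105 CPM, and the lines of air and smoke overlap for every gene.

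Among large subunit genes, Mrpl12 was the most abundant. It encodes the stalk protein that recruits translation factors, and had 288, 321 and 358 CPM (lowest, median, highest) in air and 269, 299 and 341 in smoke. Mrpl14, a protein of the interface between the subunits, came next with a mean of 240 CPM over all samples, followed by the mitochondria-specific Mrpl51 (171 CPM) and Mrpl37 (168 CPM). Mrpl51 was the steadiest member in air, with 173 ± 9.82 CPM, a coefficient of variation of 5.67%. At the other end stood Mrpl9 at 3.90 CPM and Mrpl23 at 2.98 CPM, near the floor in some samples.

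Small subunit genes were led by Mrps23, a mitochondria-specific protein, at 105 CPM, followed by Mrps6 (86.5 CPM), Mrps7 (82.9 CPM), which binds ribosomal RNA in the head of the subunit, and Mrps24 (65.9 CPM). The neighbours Mrps6 and Mrps7 lay within their spread of each other, at 88.1 ± 13.1 and 84.3 ± 10.1 CPM in air. The lowest tested ones were Mrps31 (6.21 CPM) and Mrps28 (3.89 CPM). Mrps28 varied more than any other tested member, from 0 to 42 counts in air and from 1 to 31 in smoke, with a coefficient of variation of 94.1% and 64.1%. Mrpl9, at the same level, had 37.0% and 40.9%.

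Counts of near relatives in the Mrps18 set were unequal. Whether a low count there meant few transcripts or a 3′ end that is not annotated was not tested. Mrps18a had a mean of 43.7 CPM and Mrps18c of 29.8 CPM, while Mrps18b had 6 counts in total over the air samples and 6 over the smoke samples. Mrps18b was 1 of 4 genes that did not pass the filter. The others were Mrps36 (37 counts in air, 48 in smoke), Mrpl53 (30 and 51) and Mrps33 (105 and 126), and no fold change is given for these 4. Processed pseudogenes of Mrps36, Mrpl48 and Mrpl23 are annotated, so how reads were split between those genes and their copies is uncertain.

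Under smoke, 1 of the 74 tested members was called at an adjusted p under 0.05, Mrpl14, which was lower; among all tested genes 1.92% were called, 1.19% lower and 0.728% higher. No Mrps gene was called (0 of 26), with 5 of the 26 at an unadjusted p under 0.05 by the same edgeR quasi-likelihood test. At that unadjusted threshold 12 members passed, all lower (16.2%), against 15.5% of all tested genes in either direction, 7.95% lower and 7.55% higher. Fold changes were negative in 60 of the 74 (81.1%), against 48.4% of all tested genes, and their median log2 fold change was −0.082, against 0.0066 over all tested genes. The other 73 tested members did not pass the threshold after adjustment over all tested genes. In whole muscle, fewer cells of a type and less RNA per cell cannot be told apart.

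**Figure D2:**
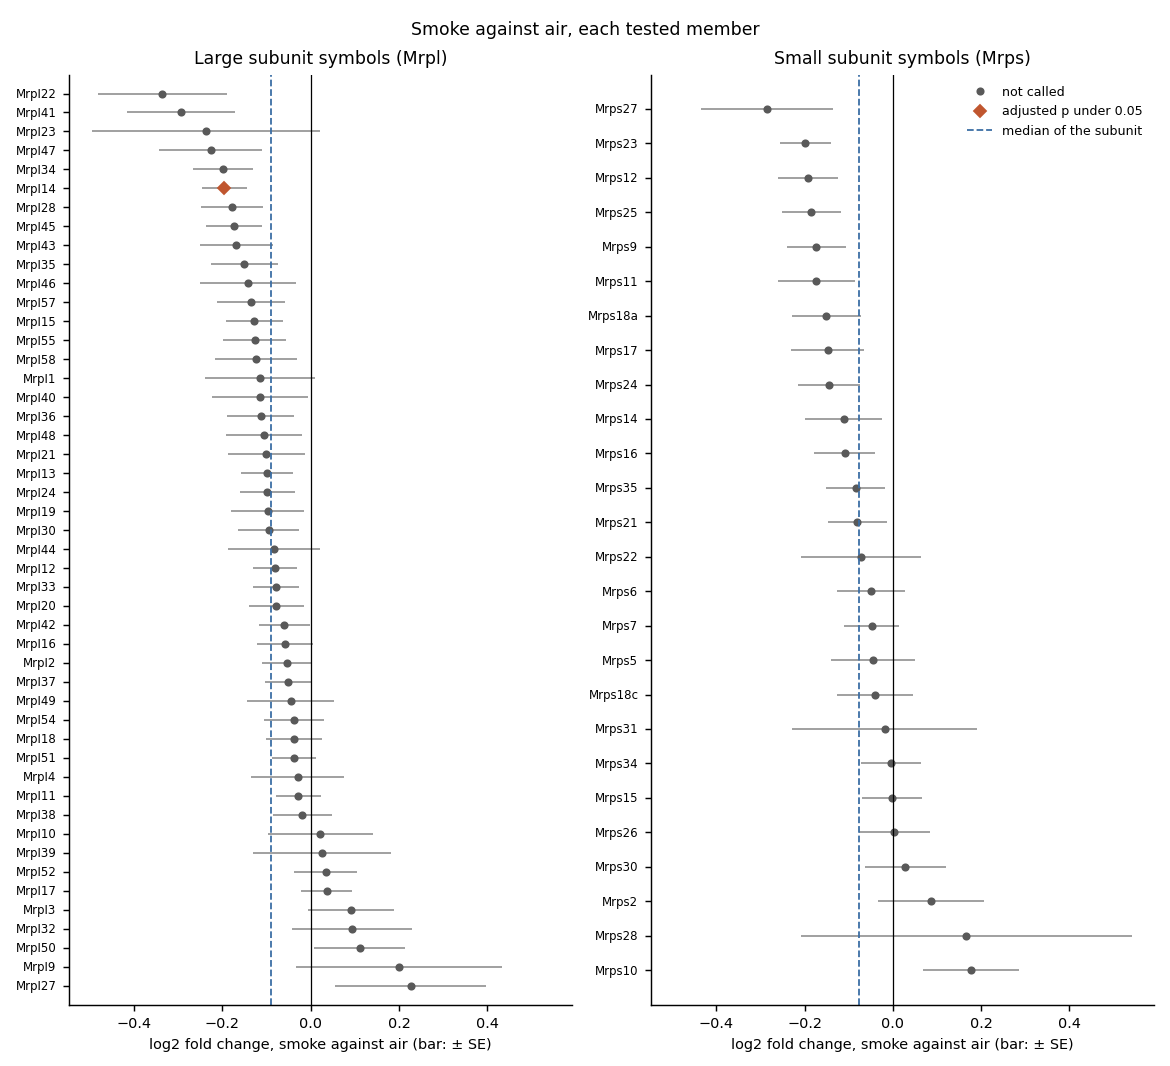
Log2 fold change of smoke against air with its SE for the 48 Mrpl (left) and 26 Mrps genes (right), ordered by value, with dashed lines at the subunit medians of −0.090 and −0.077 and a diamond for the called gene. Of the points, 39 of 48 and 21 of 26 lie left of 0, and the wide bars belong to genes of low level such as Mrps28 and Mrpl23.

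Mrpl14 lies on chromosome 17 (45686322 to 45698495, plus strand, GRCm38). It had 226, 267 and 289 CPM (lowest, median, highest) in air and 196, 226 and 250.8 CPM in smoke. The groups overlapped, but 8 of 13 smoke samples lay below the lowest air sample, 8 of 11 air samples lay above the highest smoke sample, and no smoke sample reached the air mean. Means were 258 ± 21.5 (SD, n = 11) and 225 ± 13.7 CPM (SD, n = 13). The edgeR quasi-likelihood test gave −0.20 on the log2 scale (SE 0.050, 95% interval −0.30 to −0.092) and a Benjamini-Hochberg adjusted p of 0.0306. The oppositely oriented Tmem63b overlaps it, and whether counting used strand is not given in the sources used here.

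The adjusted p passed the threshold in 18 of 24 fits that left out 1 sample. Without air replicate 3, 5, 7 or 8 the edgeR adjusted p was 0.0572, 0.0630, 0.0563 and 0.05305, and without smoke replicate 5 or 6 it was 0.0535 and 0.0567. With the blood cell marker score as a covariate it was 0.130, with no expression filter 0.0867 and with a replicate block 0.0944. The log2 fold change was −0.20, −0.21 and −0.20 in those 3 fits, lay between −0.18 and −0.22 when 1 sample was left out, and was −0.34 with the clock index described below as a covariate.

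In the large subunit the next smallest p-values belonged to 5 genes that were not called. Mrpl34, a small protein of bacterial type, had 51.0, 54.3 and 67.0 CPM in air and 39.95, 50.04 and 57.8 in smoke, with 8 of 13 smoke samples below the lowest air sample (log2 fold change −0.20, SE 0.068, edgeR adjusted p = 0.118). Mrpl45, which anchors the ribosome to the inner membrane near the exit of the nascent chain, had 59.5, 69.8 and 77.4 CPM in air and 51.9, 62.6 and 69.9 in smoke (−0.17, SE 0.063, edgeR adjusted p = 0.151). Mrpl28 lay under its air mean in all 13 smoke samples, at 69.2 ± 9.99 CPM in air and 61.1 ± 5.79 in smoke, with an edgeR adjusted p of 0.192. In each of these 3 genes the groups overlapped, and the 95% intervals ended at −0.059, −0.043 and −0.032 on the log2 scale.

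The other large subunit genes of this rank were scarce. Mrpl41 had 11.4 ± 1.71 CPM in air and 9.20 ± 2.03 in smoke, and Mrpl22, which lines the exit tunnel, had 6.82 ± 1.36 and 5.34 ± 1.35 CPM. Mrpl22 had the most negative log2 fold change of all tested members, −0.34 (SE 0.15, edgeR adjusted p = 0.241), on 12 to 40 counts per sample. The most positive was that of Mrpl27, a protein near the peptidyl transferase centre, at 0.23 (SE 0.17, edgeR adjusted p = 0.573), with 1.89, 8.00 and 11.3 CPM in air and 6.27, 8.61 and 11.8 in smoke. Leaving out 1 sample gave 0.12 to 0.299 for Mrpl27. Mrpl9 (0.20, SE 0.23) and Mrpl23 (−0.24, SE 0.26) had errors as large as their values, and ran from 0.079 to 0.28 and from −0.34 to −0.082 when 1 sample was left out.

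The other abundant large subunit genes did not pass the test. Mrpl12 had a log2 fold change of −0.081 (SE 0.049), Mrpl51 of −0.038 (SE 0.049) and Mrpl37 of −0.051 (SE 0.053), with edgeR adjusted p-values of 0.463, 0.776 and 0.706. Leaving out 1 sample gave −0.055 to −0.024 for Mrpl51 and −0.073 to −0.021 for Mrpl37. Of 13 smoke samples, 11 were under the air mean of Mrpl12 and 8 under that of Mrpl51. Over the 53 tested members at 20 CPM or more, the 95% intervals of the log2 fold change ran from −0.37 to 0.33 at their widest, against −0.77 to 0.94 over the 21 below that level.

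In the small subunit Mrps23 was closest to a call, on chromosome 11 (88204388 to 88211507, plus strand, no annotated overlap). It had 97.4, 112 and 135 CPM in air and 84.6, 98.0 and 113 in smoke, with 1 smoke sample above the air mean and overlapping groups. Its log2 fold change was −0.20 (SE 0.058, 95% interval −0.32 to −0.078, edgeR adjusted p = 0.0632). DESeq2 gave an adjusted p of 0.0287 for it, and edgeR gave 0.0412 without air replicate 1 and 0.0403 without smoke replicate 3.

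Mrps12, a protein of the decoding centre, had 46.1, 59.9 and 70.8 CPM in air and 44.1, 51.9 and 57.7 in smoke, with all 13 smoke samples under its air mean (log2 fold change −0.19, SE 0.067, edgeR adjusted p = 0.132). Mrps25 had 41.4, 48.2 and 53.9 CPM in air and 34.0, 42.2 and 48.2 in smoke (−0.18, SE 0.067, edgeR adjusted p = 0.151). Mrps9 had 57.4 ± 6.38 CPM in air and 50.9 ± 5.33 in smoke, with 7 of 13 smoke samples under the lowest air sample and an edgeR adjusted p of 0.179. In these 3 genes, as in Mrps23, the groups overlapped and the difference did not pass the adjusted threshold.

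Further small subunit genes showed smaller or less certain differences. Mrps24 had a log2 fold change of −0.14 (SE 0.070) and Mrps11, of the platform of the subunit, −0.17 (SE 0.087), with edgeR adjusted p-values of 0.310 and 0.336. Mrps27, a pentatricopeptide repeat protein at 7.05 CPM, had the most negative value of the subunit, −0.29 (SE 0.15, edgeR adjusted p = 0.354). Mrps10 had the most positive, 0.18 (SE 0.11, edgeR adjusted p = 0.467), at 9.96, 16.9 and 19.5 CPM in air and 11.8, 19.1 and 23.1 in smoke, and 10 of 13 smoke samples exceeded its air mean. Mrps18a had −0.15 (SE 0.078, edgeR adjusted p = 0.354). Mrps6, Mrps7, Mrps18c, Mrps28, Mrps30 and Mrps31 had edgeR adjusted p-values from 0.771 to 0.983. Leaving out 1 sample gave 0.12 to 0.22 for Mrps10 and 0.011 to 0.50 for Mrps28. The ranges were −0.088 to −0.022 for Mrps6 and −0.067 to −0.019 for Mrps7.

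**Figure D3:**
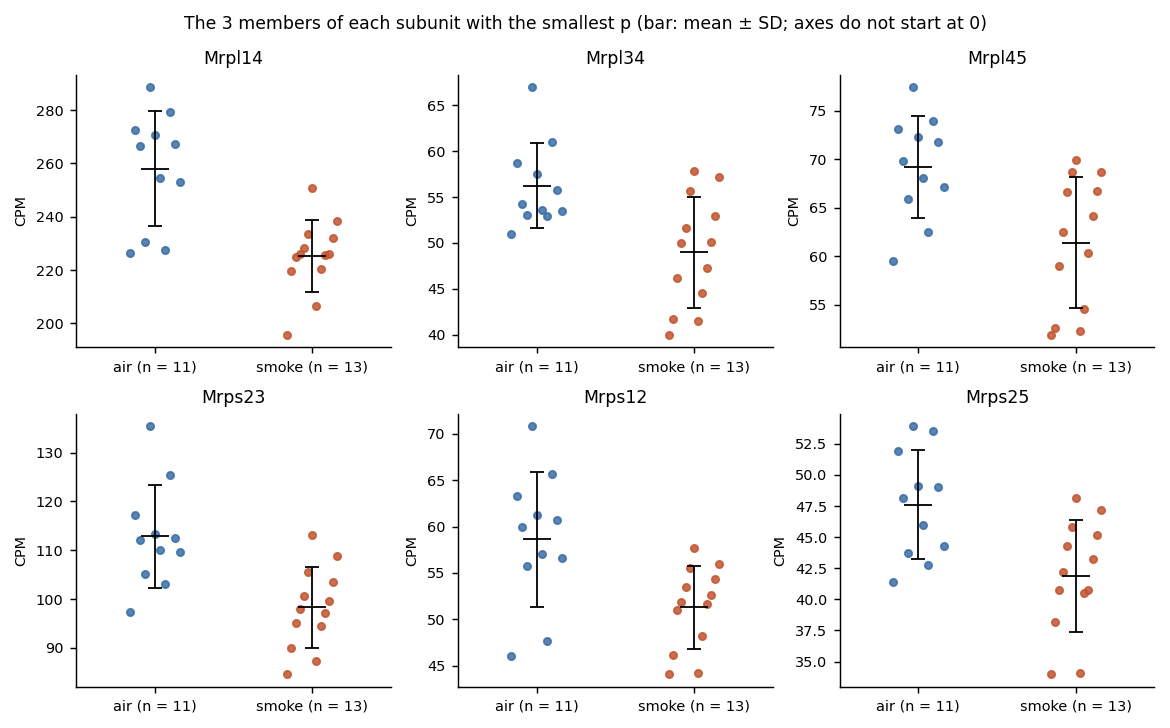
CPM in each of 11 air (blue) and 13 smoke samples (red) for the 3 Mrpl genes (top) and 3 Mrps genes (bottom) with the smallest p, with mean ± SD; the vertical axes do not start at 0. In every panel the smoke mean is lower, from 258 to 225 CPM for Mrpl14 and from 113 to 98.3 CPM for Mrps23, and points of the groups overlap.

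Member by member, 0 of the 78 had groups that did not overlap (0.0295% of all tested genes had such groups). At least 12 of 13 smoke samples lay below the air mean for 10 of the 74 tested members (13.5%), against 5.56% of all tested genes. That background is not matched for level, and members had the higher median (44.1 against 13.8 CPM). The 10 members were Mrpl14, Mrpl15, Mrpl20, Mrpl22, Mrpl28, Mrpl45, Mrps9, Mrps12, Mrps23 and Mrps25. Among the 53 members at 20 CPM or more, 47 had a negative fold change (88.7%), against 54.6% of the 4026 tested genes at that level, and of the 21 scarcer members 13 did (61.9%), against 44.3%.

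Summed over the 78 genes, transcripts of the mitochondrial ribosome amounted to 3933, 4193 and 4371 CPM (lowest, median, highest) in air and 3689, 3944 and 4126 CPM in smoke. All 13 smoke samples lay below the air mean and 4 of them below the lowest air sample, and the groups overlapped. Without TMM scaling, smoke replicate 12 lay above the air mean, at 0.417% of its raw counts against 0.414%. Means of the scaled sums were 4161 ± 148 (SD, n = 11) and 3922 ± 143 CPM (SD, n = 13), a ratio of 0.943. The sum is dominated by the abundant genes and is given as a description without a test, since the genes were chosen with results of these data known.

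Both subunits had lower sums in smoke. Mrpl genes summed to 3059 ± 121 CPM in air and 2888 ± 116 in smoke, a ratio of 0.944, and Mrps genes to 1103 ± 37.7 and 1035 ± 34.9 CPM, a ratio of 0.938. Median log2 fold changes were −0.090 over 48 Mrpl and −0.077 over 26 Mrps genes, with 39 and 21 negative. The mean log2 CPM of Mrpl genes exceeded that of Mrps genes by 0.30 ± 0.056 in air and 0.28 ± 0.058 in smoke. That balance differed between groups by −0.012 ± 0.023 (SE), smaller than the spread within either group. With Mrps30 and Mrps18a counted in the large subunit and the proteins outside the prefix added, the value was again −0.012.

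**Figure D4:**
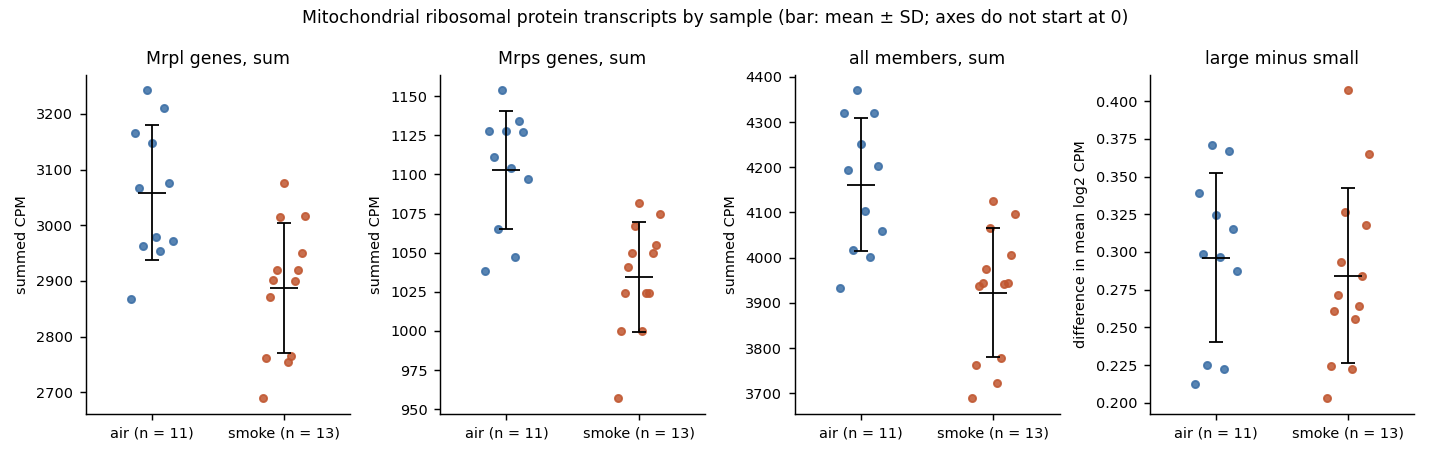
Each point is 1 sample (blue air, red smoke), with mean ± SD: summed CPM of Mrpl genes, of Mrps genes and of all 78 members, and the mean log2 CPM of Mrpl minus that of Mrps genes; axes do not start at 0. The sums sit lower in smoke (means of 4161 and 3922 CPM for all members), while the balance of the subunits covers nearly the same range in both groups.

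Each sample also had a score per subunit, the mean log2 CPM of its tested genes. Both scores, which share the scaling of their library, lay on the same side of their group mean in 9 of 11 air and 8 of 13 smoke samples. Their SDs were 0.063 and 0.066 in air and 0.052 and 0.069 in smoke. Members at 20 CPM or more had a median coefficient of variation of 11.1% in air and 11.2% in smoke.

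Proteins with and without a bacterial counterpart had close medians. The 46 tested members with one had a median log2 fold change of −0.088, with 37 negative, and the 28 without one had −0.079, with 23 negative. The called gene, Mrpl14, belongs to the first set. Members whose promoter windows hold the ETS core (23 tested) had a median of −0.10 and those without (42 tested) −0.082; for the YY1 core the values were −0.13 (12) and −0.081 (53). The 3 members with the NRF1 core had positive fold changes, at 0.20 for Mrpl9, 0.093 for Mrpl32 and 0.026 for Mrpl39, each smaller than its SE. None of these splits was tested.

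Some ribosomal proteins carry other symbols. Of Dap3, Ptcd3, Aurkaip1, Chchd1 and Gadd45gip1, 4 were tested and 0 were called. By edgeR 2 of the 4 had an unadjusted p under 0.05, both lower, against 15.5% of all tested genes. Gadd45gip1 had 76.8 ± 8.11 CPM in air and 69.1 ± 6.12 in smoke, with −0.15 on the log2 scale (SE 0.062) and an edgeR adjusted p of 0.210. Dap3, the GTP-binding protein of the small subunit, had −0.15 (SE 0.071, edgeR adjusted p = 0.312). Chchd1, the most abundant of them at 180 CPM in air, had −0.0095 (SE 0.054). Ribosomal RNAs of the mitochondrion were not called either: mt-Rnr1 had −0.10 (SE 0.077) and mt-Rnr2 0.027 (SE 0.079), with edgeR adjusted p-values of 0.564 and 0.918.

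Other genes of mitochondrial protein synthesis had no called member, while 1.92% of all tested genes were called. At an unadjusted p under 0.05 by edgeR, 16.7% of the tested assembly factors and 7.69% of the translation factors passed. The shares were 10.5% for aminoacyl-tRNA synthetases and 14.3% for transcription and RNA processing genes, against 15.5% of all tested genes. Assembly factors (24 of 27 tested) had a median log2 fold change of −0.074 with 15 negative and 4 at an unadjusted p under 0.05, of which Rmnd1, Fastkd2 and Nsun4 were lower and Mettl17 higher. Translation factors (13 of 14 tested) had a median of 0.010 with 6 negative, and 1, the elongation factor Tufm, at an unadjusted p under 0.05. Mitochondrial aminoacyl-tRNA synthetases (19 of 20 tested) had a median of −0.024 with 10 negative and 2 at an unadjusted p under 0.05, Tars2 and Gatb, both lower. Tars2, which charges threonine tRNA, had the smallest p there, at 12.7 CPM in air and 9.38 in smoke (log2 fold change −0.43, SE 0.13, edgeR adjusted p = 0.0687). Transcription and RNA processing genes (21 of 26 tested) had a median of −0.024 with 12 negative and 3 at an unadjusted p under 0.05, Tbrg4, Lrpprc and Fastkd3, all lower.

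Of the upstream regulators, 7 of 9 were tested and 0 called. At an unadjusted p under 0.05 by edgeR were 2 (28.6%), against 15.5% of all tested genes. Ppargc1a, the coactivator PGC-1α, had 60.4 ± 12.1 CPM in air and 52.1 ± 7.66 in smoke (log2 fold change −0.21, SE 0.090, edgeR adjusted p = 0.222). Its relative Pprc1 had −0.45 (SE 0.17) at 4.69 and 3.43 CPM, with an edgeR adjusted p of 0.160. Nrf1 (0.046, SE 0.15), Gabpa (−0.071, SE 0.25) and Yy1 (−0.13, SE 0.12) had fold changes with edgeR adjusted p-values of 0.928, 0.933 and 0.650.

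Nuclear subunits of oxidative phosphorylation had 10 of 75 tested genes called, all lower, against 1.92% of all tested genes called and 1.19% called lower. By edgeR 44 of the 75 (58.7%) had an unadjusted p under 0.05, all lower. The share was 16.2% of the tested members and 15.5% of all tested genes. The median log2 fold change of the nuclear subunits was −0.13, with 71 negative values. The 6 with the smallest p were Cox7a1 (−0.26), Ndufa3 (−0.22), Uqcrq (−0.22), Ndufb5 (−0.19), Cox8b (−0.19) and Atp5g1 (−0.21). Of 13 mitochondrial mRNAs 8 were tested, and mt-Co2, mt-Co3, mt-Atp6, mt-Atp8 and mt-Nd4l are listed at 0 in every sample. For those 8 the median was −0.087 with 0 called and 1, mt-Co1, at an unadjusted p under 0.05 by edgeR. Cytosolic ribosomal proteins, which build the other ribosome of the cell, had a positive median of 0.028: 60 of 76 were positive and 0 called. At an unadjusted p under 0.05 by edgeR were 8 (10.5%), 7 of them higher. Rpl4 had the smallest p of these, at 544 CPM in air and 621 in smoke (log2 fold change 0.19, SE 0.059, edgeR adjusted p = 0.0784). Thus 60 of 74 mitochondrial ribosomal protein genes had negative fold changes and 60 of 76 cytosolic ones positive fold changes, without a test of that difference.

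**Figure D5:**
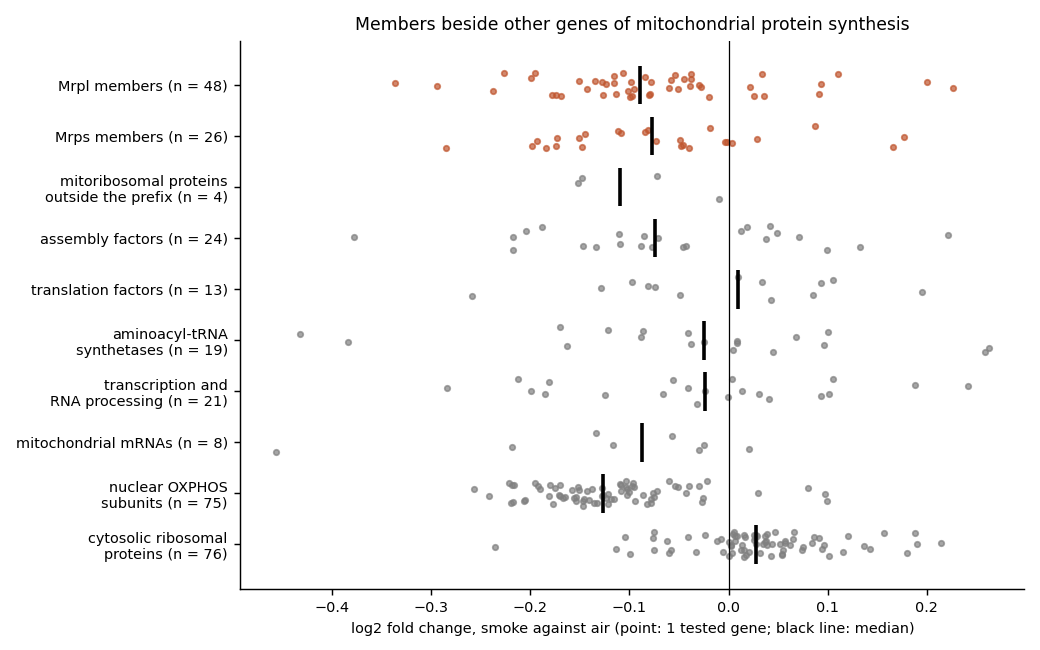
Each point is the log2 fold change (smoke against air, horizontal axis) of 1 tested gene, by list, with a black line at each list's median; red marks Mrpl and Mrps members. Members lie mostly left of 0, between nuclear OXPHOS subunits (median −0.13) and cytosolic ribosomal proteins (median 0.028).

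Of the blood cell markers 3 of 5 were called lower in smoke, and of the Schwann cell markers 3 of 5 higher, as given above. With the blood marker score as a covariate the median log2 fold change of the tested members was −0.081 and 61 of 74 were negative, against −0.082 and 60 without it. By subunit, that fit gave medians of −0.091 over Mrpl and −0.041 over Mrps genes, against −0.090 and −0.077 without the covariate. For genes of the circadian clock, no test was made of an index of Dbp, Per3, Nr1d2 and Tef minus Nfil3, Arntl, Npas2 and Clock (mean log2 CPM), whose mean was 2.17 in air and 3.22 in smoke. With that index as a covariate the median of the members was −0.16, with 60 of 74 negative and Mrpl14 again the called member. Over all tested genes 32 were called in that fit, against 195 without the index. How well the fit separates the index from smoke was not tested. Fold changes of single genes moved too, to −0.34 for Mrpl14 and −0.31 for Mrps23 on the log2 scale. The part of Schwann cell RNA in these values was not tested.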

How the data were processed

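Per the labels' protocols, RNA of flash-frozen plantaris was turned into Lexogen QuantSeq 3′ FWD libraries and read on an Illumina HiSeq instrument. The authors deposited raw read counts per Ensembl gene ID, 1 column per sample. STAR, DESeq2 and the build mm9 are named in the submitters' processing notes, without roles; the counting tool, annotation, strand setting and any use of molecular identifiers are not given in the sources used here, so reads may include PCR copies and floors cover counting error only. GENCODE M21 (GRCm38) held 99.1% of the 47643 IDs and gave symbols, types and coordinates; it is not of the build in those notes.

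Groups and replicate numbers came from sample titles. The S numbers in the column headers form an unbroken run within each group. What they stand for is not stated, and any order of processing they follow cannot be told apart from smoke. Nothing states that samples are separate mice, so p-values measure the spread between these samples. Over 133 pairs within groups, chi-square per gene was at least 2.52, so no library looked duplicated.

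Counts were filtered with filterByExpr (minimum count 10), scaled by TMM and tested over all 10159 remaining genes with edgeR 4.0.16 (quasi-likelihood, no covariates, R 4.3.3), with Benjamini-Hochberg adjustment over all of them and calls at an adjusted p under 0.05. SE is the size of the log2 fold change divided by the square root of F, and 95% intervals use 22 residual degrees of freedom. Scores are means of log2 CPM (prior count 2). The procedure was tested on simulated data. Alternatives, with DESeq2 1.42.0 and limma 3.58.1 among them, are given in the closing section.

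The members and lists were chosen with earlier results of these data known. Genes named in full were, per subunit, those called, the 6 with the smallest p, the 4 most and 2 least abundant, the extremes of fold change, and the Mrps18 genes, Mrps30 and Mrps36. Of the other lists, called genes were to be named, at most 6 by p; other genes named were chosen after their values were seen. 42 of the 78 genes overlap another annotated gene and are uncertain to that extent. 1 entry of the list of ribosomal proteins outside the prefix, Mrpl58 (formerly Ict1), carries the prefix and was counted with the members.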

Additional observations from a re-analysis of the deposited data

How the results depend on the processing

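Against 1 member called, DESeq2 and an adjusted p under 0.10 each gave 2 (Mrpl14 and Mrps23). Over all tested genes these gave 323 and 413 calls, against 195 in the main fit. No expression filter, the blood score as a covariate and the replicate block each gave 0 members, with 201, 56 and 138 calls over all tested genes. At an unadjusted p under 0.05 those 3 fits gave 12, 12 and 13 members, and DESeq2 gave 12. Adjusted p for Mrpl14 by edgeR was 0.0867, 0.130 and 0.0944 in those 3 fits, where no expression filter tests more genes and the block fit both leaves out smoke replicates 12 and 13 and adds block terms; the causes were not tested. RLE and upper-quartile scaling, limma voom, a CPM filter, removal of the 10 most abundant genes and, as a covariate, the clock index or the share of counts on Gm42418, which took 12.7% of counts in air and 14.3% in smoke, each gave 1. Leaving out each of 24 samples gave 0 to 2, with Mrpl14 called in 18. The replicate numbers are shared by number only: 11 same-numbered pairs had a mean correlation of deviations of −0.0059, against 0.0011 over 132 other pairs, 4 of 11 were over 0.1, and 2 of 11 air samples correlated best with their own number.

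The count of negative fold changes was 54, with a median of −0.072, with the Gm42418 share as a covariate, and 57 to 62 under the other alternatives. The median log2 fold change of the members moved beyond 1 SD of the air samples only with the clock index as a covariate, to −0.16 (−0.16 over Mrpl and −0.17 over Mrps genes); the cause was not tested. With the blood score the median over Mrps genes was −0.041, against −0.077, and that over Mrpl genes −0.091. The balance of the subunits was computed by place, by gene median, with z scores (−0.025), with a prior count of 0.5, under RLE and without each sample, and was negative in each, from −0.0046 to −0.039. It was not computed under the other alternatives; the Mrps median was the more negative of the subunit medians with the clock index and without air replicate 4, air replicate 11 or smoke replicate 5. Summed CPM on raw totals was 4142 in air and 3887 in smoke. As a share of raw counts the members ran from 0.368% (air replicate 11) to 0.443% in air and from 0.368% to 0.417% in smoke. Among named genes, 910 of 944 comparisons with alternatives kept direction and side of the threshold, and 22 turned direction, none of them with a call. They were Mrps31 under voom (0.019), the block (0.044), the Gm42418 share (0.061) and the clock index (0.52); Mrps30 with the block (−0.014), with the blood score (−0.0037) and with the clock index (−0.16); Mrpl23 (0.049) and Mrps18c (0.0085) under the Gm42418 share; and Mrps28 under the blood score (−0.034). Leaving out 1 sample gave −0.12 to 0.062 for Mrps31, −0.075 to 0.0028 for Mrps18c and −0.0023 to 0.067 for Mrps30. The 95% intervals were wider for genes under 20 CPM.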

Other observations

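Some members share their locus with another gene for a mitochondrial protein. Mrps11 and Mrpl46 lie head to head on chromosome 7, and their annotated bodies overlap by 413 bases on opposite strands. Mrps11 had 18.9 ± 2.24 CPM in air and 16.8 ± 2.06 in smoke, while Mrpl46 had 32.9 ± 7.86 and 29.9 ± 5.26 CPM (± SD, 11 air and 13 smoke samples). Mrpl47 overlaps Ndufb5, a subunit of complex I, on the opposite strand: Ndufb5 was called lower (1221 to 1066 CPM, log2 fold change −0.19, SE 0.047, edgeR adjusted p = 0.0214), and Mrpl47, at 13.4 and 11.5 CPM, had −0.23 (SE 0.12, edgeR adjusted p = 0.351). Mrpl36 overlaps Ndufs6 in the same way, with log2 fold changes of −0.11 (SE 0.077) and −0.15 (SE 0.054), neither called. Mrpl43 overlaps Twnk, the mitochondrial DNA helicase, with −0.17 (SE 0.082) and 0.10 (SE 0.097). These pairs were chosen after their values were seen. The overlap of Mrps11 and Mrpl46 lies at their 5′ ends, away from where 3′ reads arise.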
